A study of Mus musculus with 6 samples.

Results

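The 8 chemokine receptor genes Ccr1, Ccr2, Ccr3, Cxcr3, Cxcr4, Ccrl2, Ackr3 and Cmklr1 were followed in macrophages grown from sorted mouse bone marrow cells. They were taken by symbol from the 55487 genes of the deposited count table as receptors of monocytes and macrophages, with Cx3cr1 left aside, and all 8 were found there. The study compared TpMo-derived with Ly6Chi-derived macrophages, 3 RNA sequencing libraries each. Cells named TpMos and mature Ly6Chi monocytes had been sorted from bone marrow and kept for 7 days in serum-containing medium with CSF-1. CSF-1 is the growth factor that carries monocytes into macrophages. All libraries thus share the length of culture and the presence of this growth factor. The CSF-1 concentration, the sort gates and the strain, age and sex of the mice are not given in the sources used here, nor is it stated whether the libraries came from separate mice or cultures, and the p-values below therefore reflect the spread among these libraries alone, which may be technical.

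Chemokine receptors are cell surface receptors with a bundle of membrane-spanning helices. Conventional receptors couple chemokine binding to inhibitory G proteins and steer cells along chemokine gradients, while atypical receptors bind the same or related ligands and clear or present them without that coupling. In monocytes, Ccr2 is known for release from bone marrow and Cxcr4 for retention there, and receptors of inflammatory chemokines such as Ccr1 guide cells into tissue.

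The library totals ran from 23765773 to 33042094 counts on genes. At that depth 3 counts, taken as the floor, correspond to 0.0921 to 0.130 CPM, a unit that divides counts by TMM-adjusted library totals. This floor covers counting error only and takes counts as independent. Mates were counted separately here, so a fragment can give more than a single count and the floor may be too low. Across all 13140 genes tested, 1620, or 12.3%, changed, meaning an edgeR p under 0.05 after Benjamini-Hochberg adjustment over those genes. The 6 macrophage markers Adgre1, Csf1r, Mertk, Cd68, Fcgr1 and Lyz2 were present in every library and summed to 34600 to 37100 CPM in TpMo-derived and 28400 to 31400 CPM in Ly6Chi-derived libraries, with 3 of them higher and 0 lower in TpMo-derived macrophages. Of 8 stromal or endothelial markers, 5 had no count and Pecam1 rose, and the list, mostly Kdr, summed to 29.2 to 33.6 CPM in TpMo-derived and 7.5 to 24.2 CPM in Ly6Chi-derived libraries. Of 5 B cell markers, Cd79a and Pax5 had no count. The list, mostly Ighm and Cd79b, summed to 7.28 to 14.1 CPM in TpMo-derived and 1.71 to 7.87 CPM in Ly6Chi-derived libraries. Ighm stood at 9.76, 5.12 and 4.77 CPM in TpMo-derived and 0.399, 1.46 and 3.61 CPM in Ly6Chi-derived libraries, without overlap. For Cd79b the values were 4.30, 2.15 and 3.82 CPM against 1.31, 1.02 and 4.26 CPM. Neither Ighm nor Cd79b passed (edgeR adjusted p = 0.113 and 0.611). The part of these 2 lists in the results was not tested. Neutrophil and dendritic cell markers summed to at most 1.1 and 0.781 CPM in TpMo-derived and 1.49 and 0.763 CPM in Ly6Chi-derived libraries.

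Ccr3 rose and Ccr1, Cxcr3, Ccrl2 and Cxcr4 fell in TpMo-derived macrophages, whereas Ccr2 and Cmklr1 did not pass the test and Ackr3 had no count. Thus 5 of the 7 members tested changed, against 12.3% of all genes tested, with 1 higher, where 6.54% of all genes were higher, and 4 lower, where 5.79% were lower. The groups did not overlap for the same 5 genes, against 30.5% of all genes tested. The median log2 fold change (TpMo-derived over Ly6Chi-derived) was -1.08 over the 7 members and 0.01 over all genes tested. The members were chosen with earlier results of these data known, so these shares and medians are a description and not a test of the list. In these bulk libraries, fewer cells with a transcript and less transcript per cell cannot be told apart.

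The letters before the gene starts are shown for 4 receptors that changed: Ccr3 and Ccr1, which lie in the same gene cluster and differed in direction, and Ccrl2 and Cxcr4, which fell with Ccr1. Each line holds the 250 bases upstream of the RefSeq start on GRCm38.p6, read 5′ to 3′ on the gene's strand. Capitals mark matches, on either strand, to 6 short motifs chosen after the sequences had been seen.
Ccr3: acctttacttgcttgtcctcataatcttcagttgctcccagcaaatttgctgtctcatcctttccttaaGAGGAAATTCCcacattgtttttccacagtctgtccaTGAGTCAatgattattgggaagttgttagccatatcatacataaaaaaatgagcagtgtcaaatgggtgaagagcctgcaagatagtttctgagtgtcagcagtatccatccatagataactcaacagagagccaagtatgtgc
Ccr1: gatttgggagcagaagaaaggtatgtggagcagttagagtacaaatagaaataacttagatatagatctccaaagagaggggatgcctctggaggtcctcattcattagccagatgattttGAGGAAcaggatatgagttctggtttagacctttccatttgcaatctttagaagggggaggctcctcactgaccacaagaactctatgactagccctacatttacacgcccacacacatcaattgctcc
Ccrl2: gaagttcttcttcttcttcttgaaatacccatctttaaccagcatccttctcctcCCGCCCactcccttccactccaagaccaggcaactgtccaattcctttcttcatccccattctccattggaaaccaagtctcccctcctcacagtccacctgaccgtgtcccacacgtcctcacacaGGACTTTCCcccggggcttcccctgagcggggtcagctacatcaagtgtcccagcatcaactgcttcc
Cxcr4: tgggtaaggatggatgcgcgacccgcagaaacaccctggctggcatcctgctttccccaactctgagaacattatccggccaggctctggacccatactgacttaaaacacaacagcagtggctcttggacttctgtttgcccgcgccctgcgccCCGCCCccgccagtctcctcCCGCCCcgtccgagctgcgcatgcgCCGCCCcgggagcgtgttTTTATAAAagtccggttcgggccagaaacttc

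The Ccr3 window lies at chr9:124021721-124021970 on the plus strand, and the Ccr1 window at chr9:123968693-123968942 on the minus strand. The Ccrl2 window, the most upstream of 3 that RefSeq gives, lies at chr9:111057519-111057768, and the Cxcr4 window at chr1:128592300-128592549, both on the minus strand. The motifs were the PU.1 core GAGGAA, which 23.3% of the 32851 RefSeq windows of the same length hold, the AP-1 letters TGANTCA (6.75%), the NF-kB letters GGANTTTCC (1.07%), the interferon-stimulated response element (2.98%), TATAAA (12.4%) and the GC box GGGCGG (32.7%). The Ccr3 window held 1 PU.1 core that overlaps 1 NF-kB match, and 1 AP-1 match. The Ccr1 window held 1 PU.1 core, and the Cxcr3 window, not printed, held 1 as well. The printed Ccrl2 window held 1 NF-kB match and 1 GC box, while the Ccrl2 windows not printed held no match to any motif. The Cxcr4 window held 3 GC boxes and TATAAA on each strand, the 2 overlapping, with a GC content of 61.2%, against a median of 52.4% over all windows and 40.4% for Ccr3. The Cmklr1 window held 1 PU.1 core, the Ackr3 window TATAAA and a GC box, and the Ccr2 window no match. None of the 10 windows of the 8 genes held the interferon-stimulated response element. These matches describe the letters and say nothing of whether a factor binds.

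Ccr3, the receptor for eotaxins that is best known from eosinophils, was the member that rose. Its counts were 1950, 1568 and 1710 in TpMo-derived libraries, against 492, 364 and 466 in Ly6Chi-derived libraries. In CPM it stood at 59.9, 58.2 and 74.2 in TpMo-derived and at 17.9, 13.3 and 14.5 in Ly6Chi-derived libraries. The lowest TpMo-derived library was thus more than 3 times the highest Ly6Chi-derived library. The log2 fold change was 2.07 ± 0.17 (SE, n = 3 each, edgeR adjusted p = 5.10e-05), or 4.21-fold higher, and by p the gene ranked 65 of the 13140 genes tested. Leaving out any 1 library moved the log2 fold change between 1.95 and 2.196. The gene (ENSMUSG00000035448.9) lies on chromosome 9, 124021972 to 124031689, plus strand, on GRCm38, with 2 exons and a single transcript in GENCODE M21. Of 6 eosinophil markers, Epx, Ear1, Il5ra and Prg3 had no count in any library, and Prg2 had 6 counts in Ly6Chi-derived replicate 2 alone. Siglecf had 148, 12 and 28 counts in TpMo-derived and 144, 60 and 142 counts in Ly6Chi-derived libraries. It did not pass (log2 fold change -0.92, edgeR adjusted p = 0.526). The list, mostly Siglecf, summed to 0.446 to 4.54 CPM in TpMo-derived and 2.42 to 5.23 CPM in Ly6Chi-derived libraries. All 6 mast cell or basophil markers had no count.

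Ccr1, the receptor for inflammatory CC chemokines such as Ccl3 and Ccl9, was the most abundant member and fell. Its counts were 2218, 2387 and 1982 in TpMo-derived libraries, against 3700, 5498 and 5693 in Ly6Chi-derived libraries. That made 68.1, 88.6 and 86.0 CPM in TpMo-derived and 134, 201 and 177 CPM in Ly6Chi-derived libraries, and the groups did not overlap. The log2 fold change was -1.08 ± 0.15 (SE, n = 3 each, edgeR adjusted p = 0.00143), a 2.11-fold lower level, and it stayed between -1.23 and -0.96 when any 1 library was left out. Ccr1 (ENSMUSG00000025804.5) lies on chromosome 9, 123962124 to 123968692, minus strand, and has 2 exons.

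Cxcr3, the receptor for the interferon-induced chemokines Cxcl9, Cxcl10 and Cxcl11, fell as well. It had 146, 354 and 196 counts in TpMo-derived and 702, 706 and 672 counts in Ly6Chi-derived libraries, or 4.48, 13.1 and 8.51 CPM against 25.5, 25.8 and 20.9 CPM. The TpMo-derived libraries spread almost 3-fold among themselves, and the highest of them still lay below the lowest Ly6Chi-derived library. The log2 fold change was -1.47 ± 0.34 (SE, n = 3 each, edgeR adjusted p = 0.0187). Leaving out TpMo-derived replicate 3 ended that call (edgeR adjusted p = 0.0766), as did leaving out replicate 1 (0.0719) or replicate 2 (0.0687) of the Ly6Chi-derived libraries. Cxcr3 (ENSMUSG00000050232.6, chromosome X, 101731535 to 101734269, minus strand) is best known from T and NK cells. Of 8 T cell markers, Cd3d, Cd3e, Cd3g, Trac, Trbc2 and Cd8a had no count in any library, while Cd4 rose. Cd4 had 312, 76 and 144 counts in TpMo-derived and 0, 0 and 10 counts in Ly6Chi-derived libraries (edgeR adjusted p = 0.00641). The remaining T cell marker, Lck, had 110, 13 and 0 counts in TpMo-derived and 10, 76 and 10 counts in Ly6Chi-derived libraries. Lck did not pass (log2 fold change 0.17, edgeR adjusted p = 0.967). Of 6 NK cell markers, 5 had no count and Klrb1c had counts in 2 Ly6Chi-derived libraries. The T cell list summed to 3.30 to 13 CPM in TpMo-derived libraries, mostly Cd4, and to 0.363 to 2.78 CPM in Ly6Chi-derived libraries. The NK cell list summed to 0 CPM in each TpMo-derived library and 0 to 1.35 CPM in Ly6Chi-derived libraries.

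Ccrl2, an atypical receptor that binds chemerin and presents it to cells bearing Cmklr1, fell. Counts were 116, 194 and 164 in TpMo-derived libraries, against 592, 419 and 512 in Ly6Chi-derived libraries. In CPM the values were 3.56, 7.202 and 7.12 in TpMo-derived and 21.5, 15.3 and 15.9 in Ly6Chi-derived libraries, again without overlap. The log2 fold change was -1.56 ± 0.31 (SE, n = 3 each, edgeR adjusted p = 0.00872), and it kept its call without any 1 library, with -1.73 to -1.30. Ccrl2 (ENSMUSG00000043953.12, chromosome 9, 111054486 to 111057519, minus strand) lies apart from the Ccr1 cluster on the same chromosome. Cmklr1 itself, the signalling chemerin receptor, was near the floor, with 9, 14 and 1 counts in TpMo-derived libraries, against 14, 8 and 20 in Ly6Chi-derived libraries. The groups overlapped and Cmklr1 did not pass (log2 fold change -0.74, 95% confidence interval -3.17 to 1.68, edgeR adjusted p = 0.757). The interval leaves room for a large difference either way at this depth.

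Cxcr4, the receptor for Cxcl12 that holds cells in marrow, had the largest fold change of the members and low counts. It had 10, 26 and 24 counts in TpMo-derived and 114, 136 and 148 counts in Ly6Chi-derived libraries, or 0.307, 0.965 and 1.04 CPM against 4.14, 4.98 and 4.60 CPM. All TpMo-derived libraries lay above the floor and below every Ly6Chi-derived library. The log2 fold change was -2.57 ± 0.56 (SE, n = 3 each, edgeR adjusted p = 0.0142), with a 95% confidence interval from -3.82 to -1.32. Leaving out replicate 2 of the Ly6Chi-derived libraries ended the call (edgeR adjusted p = 0.0614), and so did leaving out replicate 3 (0.0525). Ackr3, the atypical receptor that scavenges Cxcl12, had 0 counts in all 6 libraries. The floor was 0.0921 to 0.130 CPM per library, and the level allowed may be higher because mates were counted separately. Cxcr4 (ENSMUSG00000045382.6) lies at 128588199 to 128592293 and Ackr3 (ENSMUSG00000044337.5) at 90203980 to 90216751 on chromosome 1.

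Ccr2, the Ccl2 receptor that defines classical monocytes, was low in both kinds of macrophage. It had 224, 169 and 85 counts in TpMo-derived libraries, against 49, 131 and 173 in Ly6Chi-derived libraries, and 6.88, 6.27 and 3.69 CPM against 1.78, 4.79 and 5.38 CPM. The groups overlapped, since TpMo-derived replicate 3 lay below Ly6Chi-derived replicates 2 and 3. Ccr2 did not pass (log2 fold change 0.49, 95% confidence interval -0.52 to 1.504, edgeR adjusted p = 0.588). Ccr2 (ENSMUSG00000049103.14, chromosome 9, 124101950 to 124113557, plus strand) was the member with the most sequence in common with other genes. Of its 51-base stretches, 1.86% also occur in transcripts of another gene, whereas 0% did for Ccr1, Ccr3, Cxcr3, Cxcr4, Ccrl2 and Ackr3 and 0.299% for Cmklr1. No other annotated gene overlaps an exon of any of the 8 members.

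**Figure D1:**
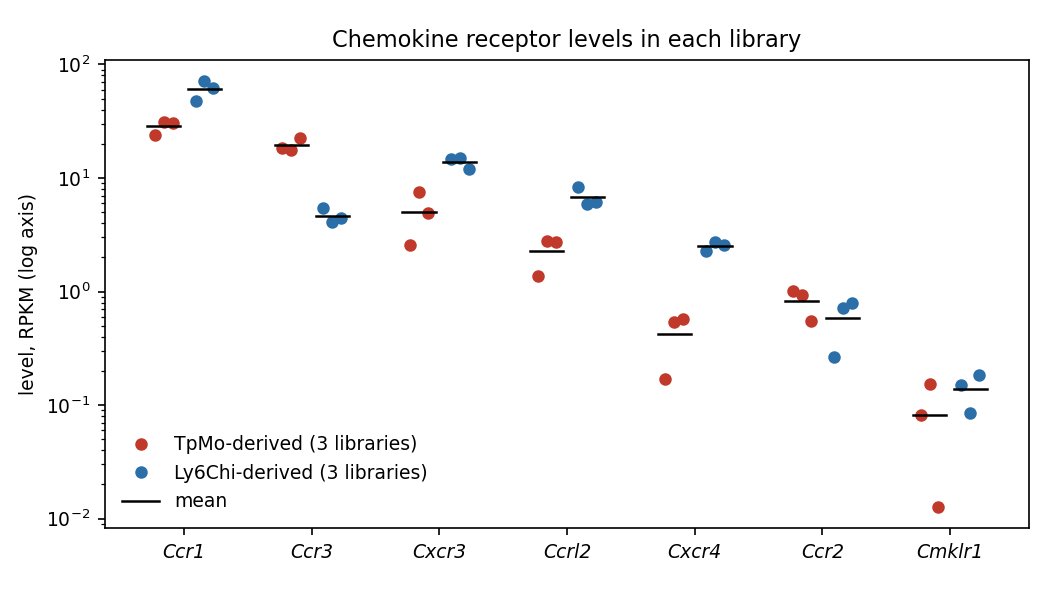
Level of each chemokine receptor with any count in each library, in RPKM on a log axis; points are libraries, 3 TpMo-derived on the left of each pair and 3 Ly6Chi-derived on the right, and black lines are means. Ccr3 is higher in every TpMo-derived library, Ccr1, Cxcr3, Ccrl2 and Cxcr4 are lower, and Ccr2 and Cmklr1 overlap.

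Set per length, as RPKM (CPM per kilobase of annotated exon), the order of the levels differed between the groups. In TpMo-derived macrophages Ccr1 led with 28.6 ± 3.95 RPKM (SD, n = 3, as for all RPKM means here), followed by Ccr3 with 19.6 ± 2.69, Cxcr3 with 5.03 ± 2.504, Ccrl2 with 2.29 ± 0.800, Ccr2 with 0.830 ± 0.250, Cxcr4 with 0.427 ± 0.223 and Cmklr1 with 0.0821 ± 0.0699 RPKM. The libraries of the neighbours Cxcr3 and Ccrl2 overlapped in this order, as did those of Ccr2 and Cxcr4. In Ly6Chi-derived macrophages Ccr1 led with 60.3 ± 11.95 RPKM, followed by Cxcr3 with 13.9 ± 1.595, Ccrl2 with 6.77 ± 1.31, Ccr3 with 4.65 ± 0.721, Cxcr4 with 2.53 ± 0.232, Ccr2 with 0.589 ± 0.286 and Cmklr1 with 0.139 ± 0.0490 RPKM, and no neighbours overlapped; Ackr3 was at 0 in both groups. Ccr3 thus stood in the second place in TpMo-derived and in the fourth place in Ly6Chi-derived macrophages. The length counts every annotated exon, so RPKM understates the level of a gene with several transcripts where a shorter one is used. This holds for Ccr2, whose 6760 bases span 4 transcripts. It also holds for Cmklr1 with 4 transcripts, Ccrl2 with 3 and Cxcr4 with 2.

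The ratio of Ccr1 to Ccr3 per length, which no scaling between libraries touches, was 1.31, 1.76 and 1.34 in TpMo-derived libraries, against 8.69, 17.4 and 14.1 in Ly6Chi-derived libraries. The means of the log2 ratio were 0.54 ± 0.24 in TpMo-derived and 3.69 ± 0.52 in Ly6Chi-derived libraries (SD, n = 3 each), a difference of -3.14. The groups did not overlap, which had to follow because Ccr1 was lower and Ccr3 higher in every TpMo-derived library. A two-sided exact permutation test over libraries therefore had to give p = 0.1, the smallest that 3 against 3 libraries allow. It adds nothing to the results of the single genes. The ratio was chosen after the values of both genes were seen.

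Ccr1 and Ccr3 belong to a cluster of chemokine receptor genes on chromosome 9. Within 300 kb of the start of Ccr1 the receptor genes described here follow in the order Ccr9, Cxcr6, Xcr1, Ccr1, Ccr1l1, Ccr3 and Ccr2. Ccr3 starts 53.3 kb from Ccr1, and Ccr2 starts 133.3 kb from it. The direction of change was not shared along the cluster. Ccr1l1, the close relative of Ccr1, stood at 1.58 ± 1.05 against 0.677 ± 0.372 RPKM and did not pass (log2 fold change 1.22, edgeR adjusted p = 0.402). Ccr9 stood at 0.114 ± 0.0990 against 0.0322 ± 0.0278 RPKM and did not pass either (log2 fold change 1.82, edgeR adjusted p = 0.491). Cxcr6 had 21, 9 and 14 counts in TpMo-derived and 8, 0 and 5 counts in Ly6Chi-derived libraries and was too low to test, and Xcr1 had 2 counts summed over TpMo-derived libraries and 1 summed over Ly6Chi-derived libraries.

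**Figure D2:**
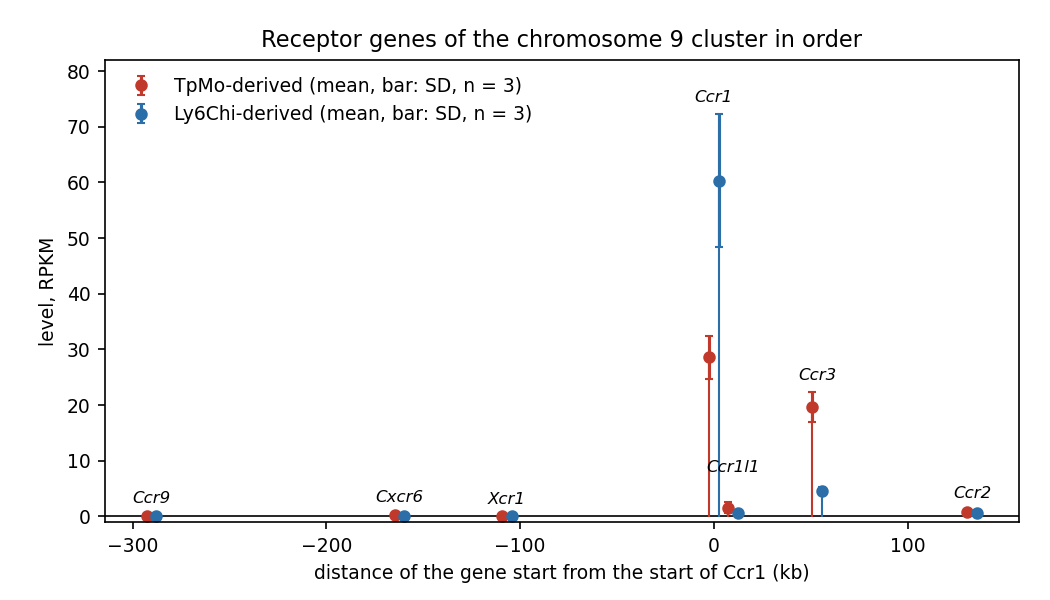
Level in RPKM (mean, bar SD, n = 3 libraries per group) of 7 chemokine receptor genes within 300 kb of the start of Ccr1, placed by the distance of their start from that of Ccr1 in kb; TpMo-derived points lie left of Ly6Chi-derived points. Ccr1 is lower and Ccr3 is higher in TpMo-derived macrophages, while Ccr9, Cxcr6, Xcr1 and Ccr2 are all under 1 RPKM in both groups.

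Beside the 8 members, 17 further genes of the family were looked at. Of these, 7 had no count in any library, among them the lymph node homing receptor Ccr7, and 3 passed the filter on low counts. Of these 3, Cx3cr1, the fractalkine receptor, changed, and Ccr1l1 and Ccr9, given above, did not pass. Cx3cr1 stood at 11.2 ± 1.91 RPKM in TpMo-derived and 19.7 ± 1.99 RPKM in Ly6Chi-derived macrophages (log2 fold change -0.81 ± 0.14 SE, edgeR adjusted p = 0.00502). Ackr4 had 2, 0 and 6 counts in TpMo-derived libraries and none in Ly6Chi-derived ones, and Ccr10 had 12, 0 and 2 counts against none. Cxcr1 had 14, 0 and 0 counts against 2, 12 and 0, and Ccr4 had 0, 0 and 1 against 0, 0 and 6. None of these 4 was tested.

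**Figure D3:**
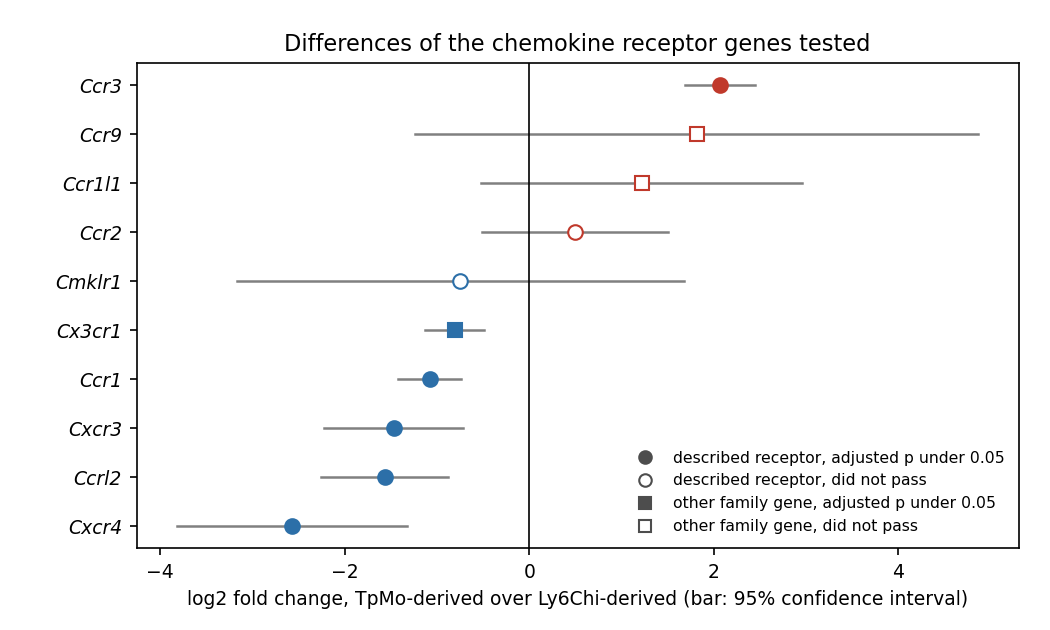
Log2 fold change (TpMo-derived over Ly6Chi-derived, n = 3 libraries each) with its 95% confidence interval for 10 chemokine receptor genes tested; circles are the described receptors, squares other genes of the family, and filled symbols have an edgeR adjusted p under 0.05. Ccr3 lies to the right of 0, Cx3cr1, Ccr1, Cxcr3, Ccrl2 and Cxcr4 to the left, and the intervals of Ccr9, Ccr1l1, Ccr2 and Cmklr1 cross 0.

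Ligands of the members were measured in the same libraries. Of 18 listed, 10 were tested, 2 rose and 1 fell, where 6.54% of all genes tested were higher and 5.79% lower. The median of their log2 fold changes was 0.29. Ccl6, a Ccr1 ligand, rose to 486 ± 63.5 CPM in TpMo-derived macrophages, against 319.8 ± 18.8 CPM in Ly6Chi-derived ones, while Ccl2, the Ccr2 ligand, fell to 212 ± 51.7 CPM, against 374 ± 27.5 CPM (edgeR adjusted p = 0.00254 and 0.00502). Cxcl10, a Cxcr3 ligand, had 200, 242 and 259 counts in TpMo-derived and 0, 32 and 23 counts in Ly6Chi-derived libraries, and rose (log2 fold change 3.79 ± 0.84 SE, edgeR adjusted p = 0.0155), a size that rests on the near-empty Ly6Chi-derived libraries. Ccl7, which binds Ccr1, Ccr2 and Ccr3, was the most abundant ligand per length, at 297 ± 119 RPKM against 499 ± 85.8 RPKM, and did not pass (adjusted p = 0.0661). The eotaxins Ccl11 and Ccl24, which bind Ccr3, Cxcl12, which binds Cxcr4 and Ackr3, chemerin (Rarres2), which binds Cmklr1 and Ccrl2, and Ccl19 had no count in any library.

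Among other chemoattractant receptors, C5ar1, C3ar1, Fpr1, Gpr84 and Gpr183 rose. Of 21 listed, 18 were tested, 5 rose and 2 fell, where 12.3% of all genes changed. Their log2 fold changes had a median of 0.25. C5ar1, the receptor of complement C5a, was the most abundant of them per length, at 1471 ± 150 RPKM in TpMo-derived and 899.5 ± 48.8 RPKM in Ly6Chi-derived macrophages (log2 fold change 0.71 ± 0.07 SE, edgeR adjusted p = 2.22e-04), and C3ar1 rose too (0.37 ± 0.08 SE). Fpr1, a receptor for formylated bacterial peptides, had 1435, 511 and 1794 counts in TpMo-derived and 110, 34 and 76 counts in Ly6Chi-derived libraries (log2 fold change 4.21 ± 0.55 SE, edgeR adjusted p = 8.02e-04). Gpr84, a receptor for medium-chain fatty acids, rose with a log2 fold change of 2.05 ± 0.26, and Gpr183, the receptor for oxysterols, with 0.77 ± 0.16 (SE). The sphingosine-1-phosphate receptor S1pr1 and the prostaglandin E2 receptor Ptger2 fell, with -0.40 ± 0.11 and -0.84 ± 0.21 (SE).

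The machinery that chemokine receptors use inside the cell was measured as well. All 40 listed genes of G protein coupling, receptor desensitisation and cell migration were tested, 4 rose and 0 fell, where 12.3% of all genes tested changed, 6.54% higher and 5.79% lower, so the share called lay near that of all genes. The median of the log2 fold changes was 0.06. The 4 were the GTPase Rap1b (log2 fold change 0.45 ± 0.07), the Cdc42 exchange factor Fgd2 (0.77 ± 0.13), the Arp2/3 subunit Arpc2 (0.30 ± 0.06) and the Rac exchange factor Prex1 (0.36 ± 0.09, all SE). Arpc2 and Cdc42 were the most abundant per length, and Cdc42 did not pass, at 377.5 ± 20.8 RPKM against 394 ± 2.89 RPKM.

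**Figure D4:**
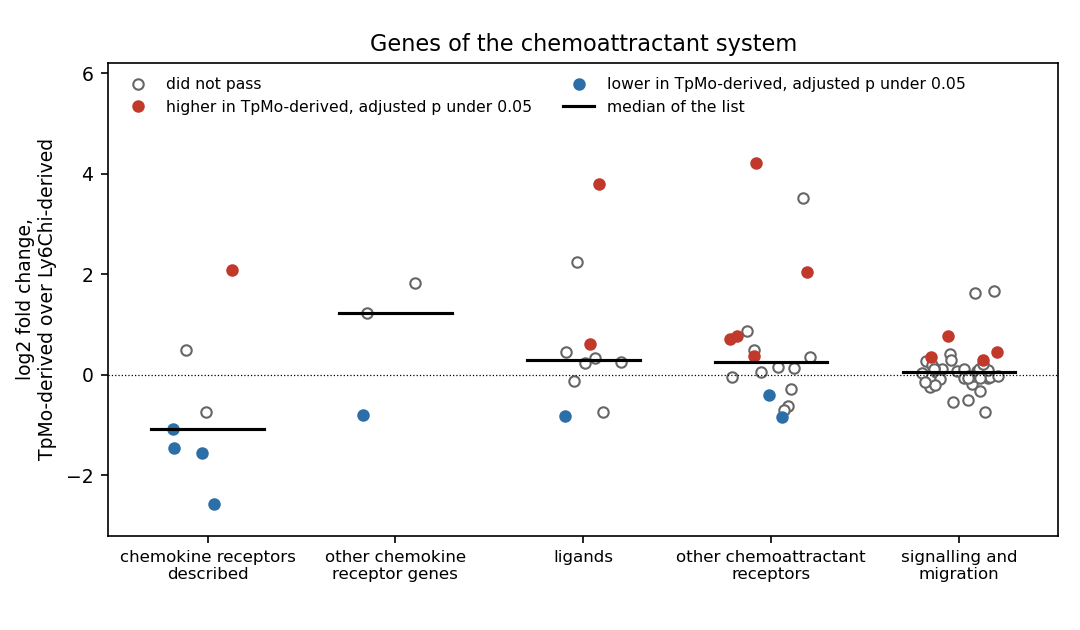
Log2 fold change (TpMo-derived over Ly6Chi-derived, n = 3 libraries each) of the tested genes described from 5 lists; each point is a gene, red and blue points have an edgeR adjusted p under 0.05, and black lines are medians. The described chemokine receptors have a median of -1.08 and the signalling and migration genes a median of 0.06.

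Among the TpMo-derived libraries, replicate 1 had the lowest CPM of Ccr1, Cxcr3, Ccrl2 and Cxcr4, and it is also the library with the highest total, 33042094 counts. The part of this library in the results was measured by leaving it out: the log2 fold changes were then -0.97 for Ccr1, -1.15 for Cxcr3, -1.30 for Ccrl2 and -2.18 for Cxcr4, and all 4 kept their call. For each member that changed, the genes with the most similar profile of log2 CPM were taken over the 6 libraries. They were Ctss and Gabpa for Ccr1, Lgals3bp and Pdia6 for Ccr3, Fmnl2 and Itgb7 for Cxcr4, Ap5s1 and Rgs12 for Cxcr3, and Ak1 and Klhl3 for Ccrl2, with Pearson correlations from 0.992 to 0.999. The 6 points fall into 2 groups and share libraries, so these correlations largely restate the group difference and are given as a description. They leave the size of a change aside: Ctss had a log2 fold change of -0.27. Gabpa, with -0.19, was the only gene among them that did not pass (edgeR adjusted p = 0.367).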

How the data were processed

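Gene expression was measured by RNA sequencing (SMART-seq v2 libraries, paired ends) in 6 libraries. The deposited table holds raw counts, 1 value per gene and library. Per the file header, featureCounts 1.6.3 counted reads over exons of GENCODE M22 with default options, so mates were counted separately, strand was ignored and multi-mapped reads were left out. STAR and GRCm38 come from the submitters' processing notes. Symbols came from GENCODE M21, which matched 55394 of 55487 identifiers.

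The test was that of edgeR 4.0.16 under R 4.3.3 (filterByExpr, minimum count 10, minimum total 15, TMM scaling, robust quasi-likelihood test, no covariate), with Benjamini-Hochberg adjustment over 13140 genes and a threshold of 0.05. CPM and RPKM use TMM-adjusted totals, and RPKM the deposited exon length. Each standard error is the size of the log2 fold change over the root of F. The pipeline was tested on simulated counts. DESeq2 1.42.0, limma-voom 3.58.1, other scalings and filters, and leaving out each library were tried as alternatives. Within groups, pairs of libraries differed by a chi-square of 20.6 to 33.8 per degree of freedom, so none is a copy of another. Replicates were numbered in accession order.

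The members and gene lists were chosen with earlier results of these data known. The text names all 8 members, other family genes with at least 3 counts in a library (a withheld item is not reported here), per list up to 4 changed genes per direction by p and 2 by RPKM, and 2 genes of similar profile per changed member. Cell type markers named beside a result, Ccr7, Xcr1 and the ligands without counts were named after their values were seen. Promoter sequences are from RefSeq on GRCm38.p6, which matched 8 of 8 members.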

Additional observations from a re-analysis of the deposited data

How the results depend on the processing

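Of the 8 receptors, 7 could be tested under the alternatives. Ccr1, Ccr3 and Ccrl2 kept direction and call under all 13 alternatives, with log2 fold changes of -1.23 to -0.96, 1.95 to 2.196 and -1.73 to -1.30. Cxcr3 kept its direction under all 13 (-1.90 to -1.15) and its call under 10, and Cxcr4 kept its direction under the 12 that could test it (-2.85 to -2.18) and its call under 10. The calls lost were all in fits without 1 library, which hold fewer samples. With at least 5 CPM in 3 samples, Cxcr4 and Cmklr1 were not tested. Ccr2 and Cmklr1 passed under none. The number of receptors called was 5, and 3 to 5 without 1 library, with the lowest value without Ly6Chi-derived replicate 2. The number of genes called was 1620, and 976 to 1492 without 1 library. It was 1852 with no count filter, over 21503 genes, and 2364 with DESeq2, which was run on those 21503 genes, so that both the tool and the filter differ there. With library totals alone the balance of all genes turned, with 737 higher and 902 lower against 859 and 761, while the receptors called remained 1 higher and 4 lower. Depth limits Cmklr1, Cxcr4 in TpMo-derived libraries and Ackr3 most. No paired analysis was possible because the labels give no replicate numbers.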
